A study of Mus musculus with 16 samples.

Results

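The 10 genes described here form the core of the switch that takes a mammalian cell from G1 into S phase. They are the Myc family transcription factors Myc and Mycn, the D-type cyclins Ccnd1, Ccnd2 and Ccnd3, the E-type cyclin Ccne1, the kinase Cdk4, and the cyclin-dependent kinase (CDK) inhibitors Cdkn2a, Cdkn2b and Cdkn1b. They were chosen by name and not by a filter on their values, though with earlier results of these data known. All 10 were found among the 22298 genes counted in every tumor. The tumors came from 6-week-old 615-line mice of wild-type genotype that carried MFC cells, a mouse forestomach carcinoma line that is syngeneic to this strain. The dose was 500000 MFC cells per mouse, placed in the peritoneal cavity. The 8 control tumors came from mice given PBS and the 8 IL-33 tumors from mice given 20 µg/kg of the cytokine IL-33, both by the intraperitoneal route every 2 days. MFC is 1 line, the labels do not say whether each tumor came from a separate mouse, and so every p-value below measures the spread between these 16 samples.

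Mitogens raise the transcription of Myc and of the D cyclins, and D cyclins bind CDK4 or CDK6 to phosphorylate the retinoblastoma protein, which frees E2F factors to transcribe Ccne1 and the DNA replication genes. The products of Cdkn2a and Cdkn2b, p16 and p15, keep D cyclins off CDK4 and CDK6, and Cdkn1b encodes p27, which blocks cyclin E with CDK2. Cdkn2a also encodes ARF, which protects p53 by holding back Mdm2, and loss of the Cdkn2a locus is common in established mouse tumor lines.

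Total counts lay between 14139268 and 24290794 in the control tumors and between 16569613 and 24288893 in the IL-33 tumors. Levels are given as CPM, the reads of a gene scaled to 1000000 reads in its tumor. These levels and the permutation tests use no composition (TMM) factor, whereas the edgeR fold changes do. An edgeR fold change can therefore differ from the ratio of the printed means. A pair of tumors stood apart. In control replicate 4, long genes were low: the median log2 difference from the other 7 controls was 0.21 for genes with up to 2942 bp of exon and -1.45 for genes with 7032 bp or more, and its composition (TMM) factor was 0.64 against 0.895 to 1.10 in 14 other tumors. IL-33 replicate 7 had a summed level of 922.9 CPM over 9 ovary markers and 1704.9 CPM over 8 uterus and oviduct markers, against at most 2.1 and 27.4 CPM elsewhere, and its 6 proliferation markers summed to 213.7 CPM against 698.5 to 1344.5 CPM in the 14 other tumors and 375.2 CPM in control replicate 4. Results are therefore given with all tumors and without 1 or both of this pair. Milder slopes with gene length remained among the 14 other tumors. From the shortest to the longest class the median ran from 0.39 to -0.41 in IL-33 replicate 3 and from 0.30 to -0.25 in control replicate 7. Some ran the other way, such as control replicate 3, from -0.14 to 0.16. In bulk tumors, fewer cells of a type and less RNA per cell cannot be told apart. The label of the tissue as gastric cancer was checked against 7 epithelial markers: Krt8 was at 181 to 975.3 CPM and Krt19 at 44.5 to 690 CPM in the 15 tumors other than IL-33 replicate 7, but Epcam, Cdh1, Krt18, Krt7 and Cldn4 stayed at or below 3.01 CPM there.

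Promoter sequence was taken from RefSeq (GRCm38.p6) as the 250 bases before each annotated start, and 7 of the 10 genes had an entry, with 9 windows in all. Both strands were searched for the E-box CACGTG, which Myc with Max can bind, and for the E2F motifs TTTCCCGC and TTTGGCGC. The Cdk4 window, plus strand, chr10:127063285-127063534, is shown because it held the E-box 4 times, marked in capitals. Only 7 of 32851 promoters of this length held 4 or more (0.0213%), and 6.02% held at least 1.
Cdk4: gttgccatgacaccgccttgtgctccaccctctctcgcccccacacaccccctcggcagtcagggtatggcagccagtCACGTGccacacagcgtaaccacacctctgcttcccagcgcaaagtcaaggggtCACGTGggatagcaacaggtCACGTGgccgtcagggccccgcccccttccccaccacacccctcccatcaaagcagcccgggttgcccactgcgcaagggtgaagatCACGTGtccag
The E-boxes began 172, 118, 98 and 11 bases before the start. The Cdkn2a gene has a start for each of its products. The distal window, chr4:89294620-89294869 on the minus strand, is shown because it held the TTTCCCGC motif, in capitals, 99 bases before the start (0.895% of promoters hold it).
Cdkn2a: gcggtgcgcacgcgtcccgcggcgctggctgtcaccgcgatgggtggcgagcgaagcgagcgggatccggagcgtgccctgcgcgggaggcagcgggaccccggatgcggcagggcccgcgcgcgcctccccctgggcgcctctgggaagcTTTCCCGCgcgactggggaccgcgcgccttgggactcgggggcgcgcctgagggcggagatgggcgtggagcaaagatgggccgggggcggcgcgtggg
The second Cdkn2a window, chr4:89282193-89282442 on the minus strand, held none of these letters. The Mycn window, chr12:12941837-12942086 on the minus strand, held TTTGGCGC in capitals at 183 and 168 bases before the start, and 0.417% of promoters held at least 1.
Mycn: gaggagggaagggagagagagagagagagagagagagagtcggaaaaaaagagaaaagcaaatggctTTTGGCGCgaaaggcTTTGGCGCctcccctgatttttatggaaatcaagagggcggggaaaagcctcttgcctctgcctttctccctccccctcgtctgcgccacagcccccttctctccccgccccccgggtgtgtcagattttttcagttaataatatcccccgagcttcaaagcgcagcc
The windows of Ccnd3, Ccne1, Cdkn1b and Cdkn2b held none of the 3 motifs. A match of letters is a description and not evidence that a factor was bound.

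None of the 10 genes differed between IL-33 and control tumors at an adjusted p under 0.05 (edgeR quasi-likelihood test with Benjamini-Hochberg adjustment over 16817 genes), and neither did any other gene (0.0% of the genes tested; the smallest adjusted p was 0.418). At an unadjusted p under 0.05, Mycn was higher and Ccnd3 lower, so 2 of 10 passed where 11.2% of all genes did, with 9.99% higher and 1.17% lower. Without IL-33 replicate 7 none of the 10 passed, against 4.12% of all genes, and none without both tumors that stood apart, against 4.19%. DESeq2 called 0 genes at an adjusted p and 4.11% at an unadjusted one. The median log2 fold change of the 10 was -0.11, beside 0.06 over all genes tested. The groups overlapped for all 10, as they did for every gene tested (0.0% did not overlap).

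**Figure D1:**
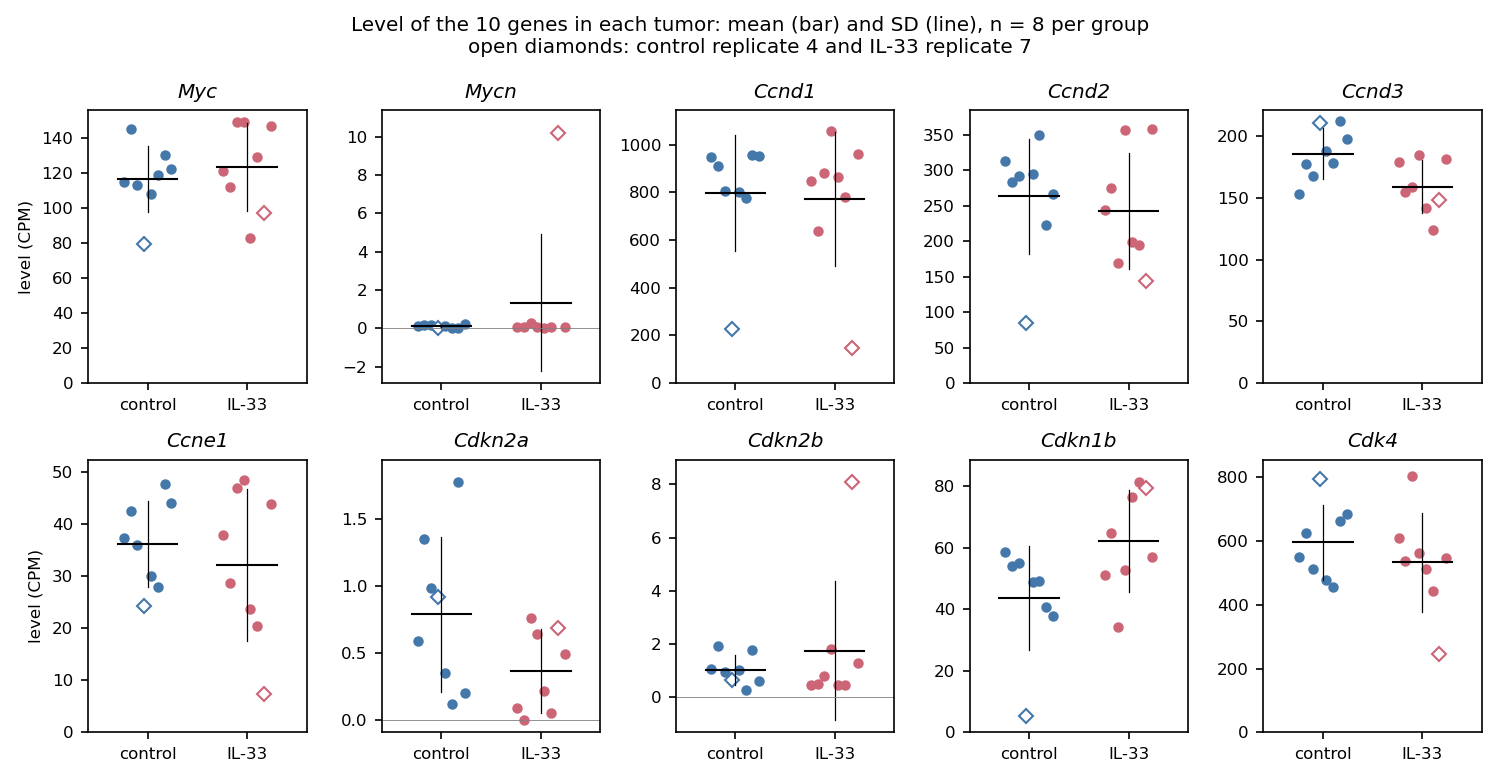
Level in CPM of each gene in the 8 control (blue) and 8 IL-33 (red) tumors; bars are means, lines SD, and open diamonds control replicate 4 and IL-33 replicate 7. The groups overlap in every panel, Mycn and Cdkn2b are high in IL-33 replicate 7 alone (10.2 and 8.09 CPM), and the lowest Ccnd1 values, 226 and 146 CPM, are those of the 2 diamonds.

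Myc (ENSMUSG00000022346, chr15:61985391-61990374, plus strand, GRCm38), the growth-promoting transcription factor, was expressed in every tumor. The controls ran from 79.5 through a median of 117 to 145 CPM, and the IL-33 tumors from 83.0 through 125 to 149 CPM. The lowest control was replicate 4 and the lowest IL-33 tumor replicate 5, and 5 of 8 IL-33 tumors lay above the control mean. The means were 116 ± 18.8 and 123 ± 24.9 CPM (SD, n = 8 each), with a log2 fold change of 0.01 ± 0.13 (SE) and an edgeR adjusted p of 0.992. Without both tumors that stood apart the log2 fold change was 0.09, with a 95% interval from -0.14 to 0.32. Of the 10 genes only Ccnd3 spread less over the 16 tumors: the highest Myc level was 1.87 times the lowest.

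Mycn (ENSMUSG00000037169, chr12:12936093-12941914, minus strand), the family member best known from neuroblastoma and embryonic tissues, was close to absent in 15 tumors. It had 0 to 5 reads in each of the 8 controls and in 7 IL-33 tumors, at most 0.273 CPM, and 179 reads, or 10.2 CPM, in IL-33 replicate 7. No read was counted in 4 tumors, where a count of 0 allows a level of up to 0.212 CPM at the shallowest depth (counting error only). The edgeR log2 fold change of 3.33 ± 1.34 (SE; unadjusted p = 0.0234, adjusted p = 0.418) was -0.36 without IL-33 replicate 7 (unadjusted p = 0.631), and the exact permutation p over all 16 tumors was 0.670. The third family member, Mycl, was likewise at 32.0 CPM in that tumor.

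Among the D cyclins, Ccnd1 (ENSMUSG00000070348, chr7:144929931-144939925, minus strand) was the most abundant in every tumor per kilobase of all annotated exons. In CPM, Ccnd3 was just above it in IL-33 replicate 7, at 148 against 146 CPM. Ccnd1 ran from 226 through a median of 858 to 955 CPM in the controls, and from 146 through 857 to 1059 CPM in the IL-33 tumors. Control replicate 4 and IL-33 replicate 7 were far below the other 14 tumors, which lay between 637 and 1059 CPM. The group means were 797 ± 242 and 773 ± 282 CPM (SD, n = 8 each), and the edgeR log2 fold change was -0.06 ± 0.31 (SE), adjusted p = 0.973. Without both low tumors the difference narrowed to a 95% interval of -0.19 to 0.19 on the log2 scale.

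Ccnd2 (ENSMUSG00000000184, chr6:127125162-127152193, minus strand), the D cyclin prominent in lymphocytes and ovarian granulosa cells, had 84.2 to 349 CPM with a median of 288 CPM in the controls. In the IL-33 tumors it had 144 to 359 CPM with a median of 222 CPM, and 3 of 8 lay above the control mean. The lowest tumor of each group was again control replicate 4 and IL-33 replicate 7. The log2 fold change of -0.16 ± 0.22 (SE) had an edgeR adjusted p of 0.853, and it was -0.05 without IL-33 replicate 7, -0.26 without control replicate 4 and -0.16 without both.

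Ccnd3 (ENSMUSG00000034165, chr17:47505051-47599691, plus strand), the D cyclin on which many blood cells rely, was one of 2 genes, with Cdkn2a, for which no IL-33 tumor reached the control mean. The controls ran from 153 through a median of 183 to 212 CPM, and the IL-33 tumors from 124 through 157 to 184 CPM. The ranges overlapped, and the means were 186 ± 20.7 and 159 ± 21.4 CPM (SD, n = 8 each). The log2 fold change was -0.35 ± 0.15 (SE), with an unadjusted edgeR p of 0.0318, an adjusted p of 0.418 and an exact two-sided permutation p of 0.0266. The same direction held in all 16 fits that left out 1 tumor, in 12 of which the unadjusted p was under 0.05. Such fits share most of their tumors, and Mycn, high in 1 tumor alone, had such a p in 15 of them. The Ccnd3 log2 fold change was -0.30 without IL-33 replicate 7 (unadjusted edgeR p = 0.0598, exact permutation p = 0.0457). It was -0.21 without control replicate 4, the second highest control in CPM. In the fit this tumor is the highest control, because its TMM factor of 0.64 raises its level. Without both tumors that stood apart the log2 fold change was -0.16, with a 95% interval from -0.33 to 0.02 and an exact permutation p of 0.0851.

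Per kilobase of exon, Ccnd1 made up 74.2% to 83.8% of the summed D cyclin level in 14 tumors, Ccnd2 8.07% to 16.7% and Ccnd3 6.91% to 9.67%. The mix differed in both tumors that stood apart: Ccnd1 was 59.3% of the sum in control replicate 4, where Ccnd3 took 29.6%, and 49.1% in IL-33 replicate 7, where Ccnd2 took 24.2% and Ccnd3 26.7%. Between the groups, the Ccnd1 share was 75.9% ± 7.06 in control and 76.2% ± 11.4 in IL-33 tumors (SD, n = 8 each; exact permutation p = 0.949). The Ccnd2 share was 12.8% ± 2.24 and 13.4% ± 5.10 (exact permutation p = 0.772), and the Ccnd3 share 11.3% ± 7.44 and 10.4% ± 6.65 (exact permutation p = 0.523). All these shares depend on dividing by the length of all annotated exons. By principal transcript length the medians were 229, 42.8 and 84.2 CPM per kb for Ccnd1, Ccnd2 and Ccnd3, which makes the Ccnd3 share larger. In control replicate 4 and IL-33 replicate 7 Ccnd3 then stands above Ccnd1, whose principal transcript is 3740 bp. Long genes were low in control replicate 4, where Ccnd2 was low and Ccnd3 was not. Over all annotated exons these 2 genes are the longest of the 10, at 9409 and 8775 bp. Their principal transcripts, however, are 6330 and 2113 bp, and the part of transcript length was not tested.

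**Figure D2:**
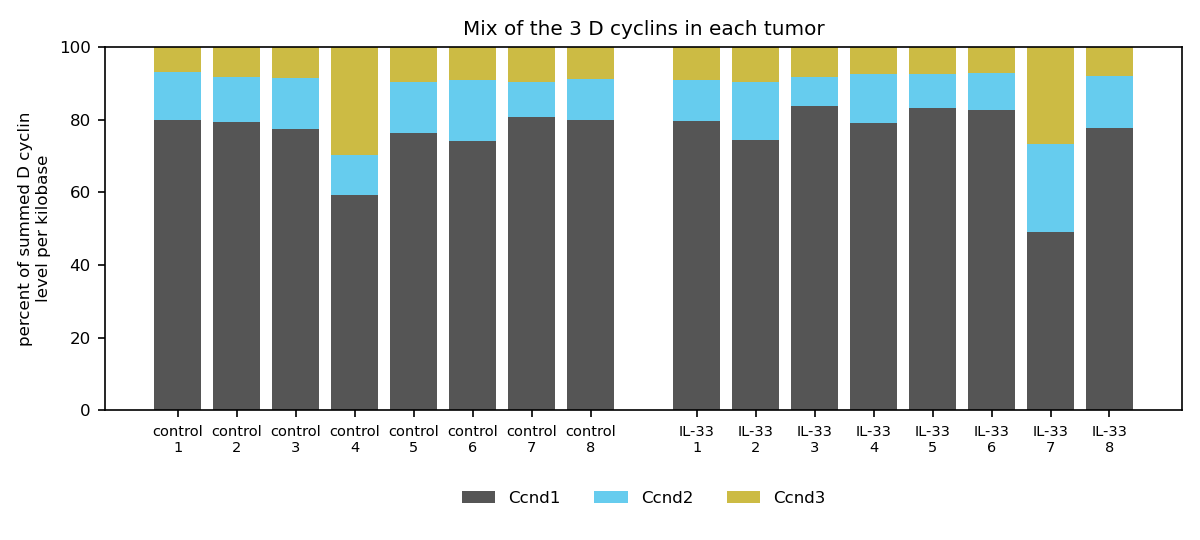
Share of Ccnd1, Ccnd2 and Ccnd3 in the summed D cyclin level per kilobase of all annotated exons, in percent, 1 bar per tumor. By principal transcript length the Ccnd3 share would be larger. Ccnd1 takes 74.2% to 83.8% in 14 tumors, 59.3% in control replicate 4 and 49.1% in IL-33 replicate 7.

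Cdk4 (ENSMUSG00000006728, chr10:127063534-127067920, plus strand), the kinase that D cyclins activate, was close to Ccnd1 in level. The controls ran from 454 through a median of 588 to 795 CPM, and the IL-33 tumors from 246 through 542 to 803 CPM. Control replicate 4, low for the cyclins Ccnd1 and Ccnd2, was here the highest control, and IL-33 replicate 7 was the lowest of all tumors. The means were 595 ± 117 and 533 ± 156 CPM (SD, n = 8 each). The edgeR log2 fold change was -0.29 ± 0.25 (SE), adjusted p = 0.723, and 0.05 without both tumors. Its partner kinase Cdk6 was at 45.0 to 146 CPM.

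Ccne1 (ENSMUSG00000002068, chr7:38097984-38107534, minus strand), the cyclin that activates CDK2 at the start of S phase, ran from 24.3 through a median of 36.6 to 47.6 CPM in the controls. In the IL-33 tumors it ran from 7.41 through 33.3 to 48.4 CPM, with IL-33 replicate 7 far below the rest. The means were 36.2 ± 8.28 and 32.1 ± 14.6 CPM (SD, n = 8 each), the log2 fold change -0.24 ± 0.28 (SE) and the edgeR adjusted p 0.818. Without IL-33 replicate 7 the log2 fold change was -0.07.

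Of the inhibitors, Cdkn2a (ENSMUSG00000044303, chr4:89274471-89294653, minus strand) was close to absent throughout. The controls held 2 to 31 reads, or 0.123 to 1.77 CPM with a median of 0.756 CPM, and the IL-33 tumors 0 to 14 reads, or at most 0.765 CPM with a median of 0.357 CPM. Over all 16 tumors 166 reads were counted on Cdkn2a, against 35747 on Myc. The counts do not separate p16 from ARF. The means were 0.788 ± 0.579 and 0.369 ± 0.312 CPM (SD, n = 8 each), and no IL-33 tumor reached the control mean. The edgeR log2 fold change was -1.25 ± 0.74 (SE), adjusted p = 0.567. It was -1.36 without IL-33 replicate 7 and -1.21 without both tumors that stood apart. The single tumor with 0 reads, IL-33 replicate 2, allows up to 0.181 CPM.

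Cdkn2b (ENSMUSG00000073802, chr4:89306299-89311039, minus strand), the p15 gene beside Cdkn2a, was as low in 15 tumors. They had 0.247 to 1.90 CPM, whereas IL-33 replicate 7 had 8.09 CPM from 142 reads. The means were 1.01 ± 0.572 in control and 1.72 ± 2.62 CPM in IL-33 tumors (SD, n = 8 each). The log2 fold change was 0.55 ± 0.61 (SE; edgeR adjusted p = 0.806), and -0.37 without IL-33 replicate 7.

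The genes next to this pair on chromosome 4 were not all silent. Mtap, the methionine salvage enzyme whose gene is often lost together with Cdkn2a in tumors, was at 44.2 to 124 CPM with a median of 110 CPM. Klhl9 was at 21.1 to 83.5 CPM and Focad at 5.23 to 25.7 CPM. Dmrta1 and Elavl2, which are tissue-restricted regulators, were at or under 1.94 and 0.513 CPM. The cultured MFC line itself was not measured, so whether the few Cdkn2a and Cdkn2b reads came from tumor cells or host cells cannot be told apart, and a deletion in the line was not tested.

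Cdkn1b (ENSMUSG00000003031, chr6:134920401-134925513, plus strand), which encodes p27, was the one inhibitor of the 3 with a clear level. The controls ran from 5.38 through a median of 49.0 to 58.7 CPM, and the IL-33 tumors from 34.3 through 60.9 to 81.5 CPM. Control replicate 4 had 5.38 CPM where the next lowest control had 37.9 CPM, and 7 of 8 IL-33 tumors lay above the control mean. The means were 43.7 ± 17.0 and 62.2 ± 16.5 CPM (SD, n = 8 each). The edgeR log2 fold change was 0.49 ± 0.29 (SE), with an adjusted p of 0.557, and the exact two-sided permutation p was 0.0584. Without IL-33 replicate 7 the log2 fold change was 0.49, with an exact permutation p of 0.131. Without both tumors that stood apart it was 0.33, with a 95% interval from -0.07 to 0.73 and an exact permutation p of 0.200.

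**Figure D3:**
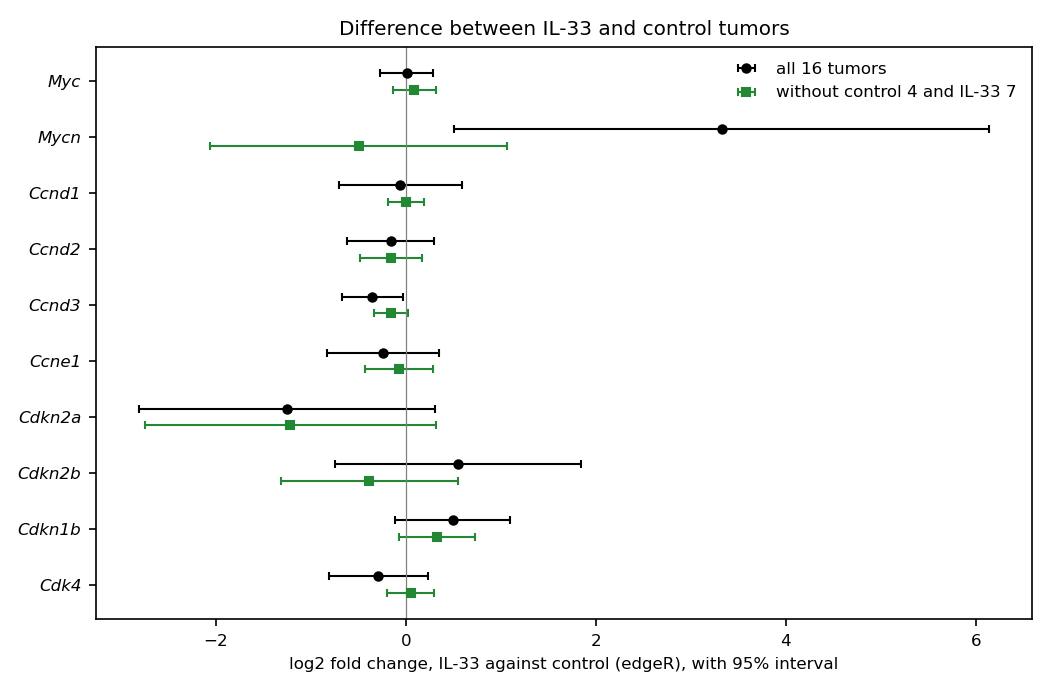
Log2 fold change of each gene, IL-33 against control, from the edgeR fit with its 95% interval, over all 16 tumors (black circles) and without control replicate 4 and IL-33 replicate 7 (green squares). With all tumors the intervals of Mycn and Ccnd3 exclude 0, and without the pair every interval includes 0.

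Compared per kilobase of exon, Ccnd1 and Cdk4 stood at the top with medians of 182 and 169 CPM per kb over the 16 tumors, ahead of Myc with 44.1. Ccnd2 followed with 28.8, Ccnd3 with 20.3, Ccne1 with 13.7 and Cdkn1b with 11.8 CPM per kb, and Cdkn2b, Cdkn2a and Mycn closed the order with 0.613, 0.464 and 0.022 CPM per kb. Only the step from Cdk4 to Myc separated neighbours whose ranges did not overlap. Myc was nevertheless above Ccnd2, Ccnd3 above Ccne1 and Cdkn1b above Cdkn2b in each of the 16 tumors, whereas Ccnd1 exceeded Cdk4 in 9 and Ccne1 exceeded Cdkn1b in 11. Taking the length of the principal transcript in place of all exons put Cdk4 before Ccnd1 and Ccnd3 before Ccnd2. By the level over all annotated exons, Ccnd1 ranked 247 and Cdk4 259 among 22255 genes, and Mycn 14626.

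The 10 genes departed in different ways in the 2 tumors that stood apart. Control replicate 4 alone had the lowest CPM, without a TMM factor, of the 16 tumors for Myc, Ccnd2 and Cdkn1b, 3 of the 10, as it did for 38.3% of all genes tested. IL-33 replicate 7 was lowest for Ccnd1, Ccne1 and Cdk4, 3 of the 10 where 10.1% of all genes were, and highest for Mycn and Cdkn2b, 2 of the 10 where 43.0% of all genes were. In control replicate 4, Cdkn1b was lower than the median of the other 7 controls by a log2 difference of -3.08 where genes of its length class had a median of -0.65, and Ccnd1 differed by -2.005 where its class had -1.02. Ccnd2 differed by -1.79 in a class with -1.45, but Ccnd3, of the same class, was at 0.24. Cdk4 was at 0.53 in a class with -0.65. Genes of one class of summed exon length thus departed in opposite directions in this tumor. Their principal transcripts differ in length, at 4552 bp for Cdkn1b and 2053 bp for Cdk4, and 6330 bp for Ccnd2 and 2113 bp for Ccnd3. The part of transcript length in these values was not tested. In IL-33 replicate 7, Ccnd1 differed from the other 7 IL-33 tumors by -2.56, Ccne1 by -2.28 and Cdk4 by -1.15, Cdkn1b by 0.48, and Cdkn2b and Mycn by 3.13 and 4.26. The reproductive tract markers were high and the proliferation markers low in the same tumor, and their part in these values was not tested.

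**Figure D4:**
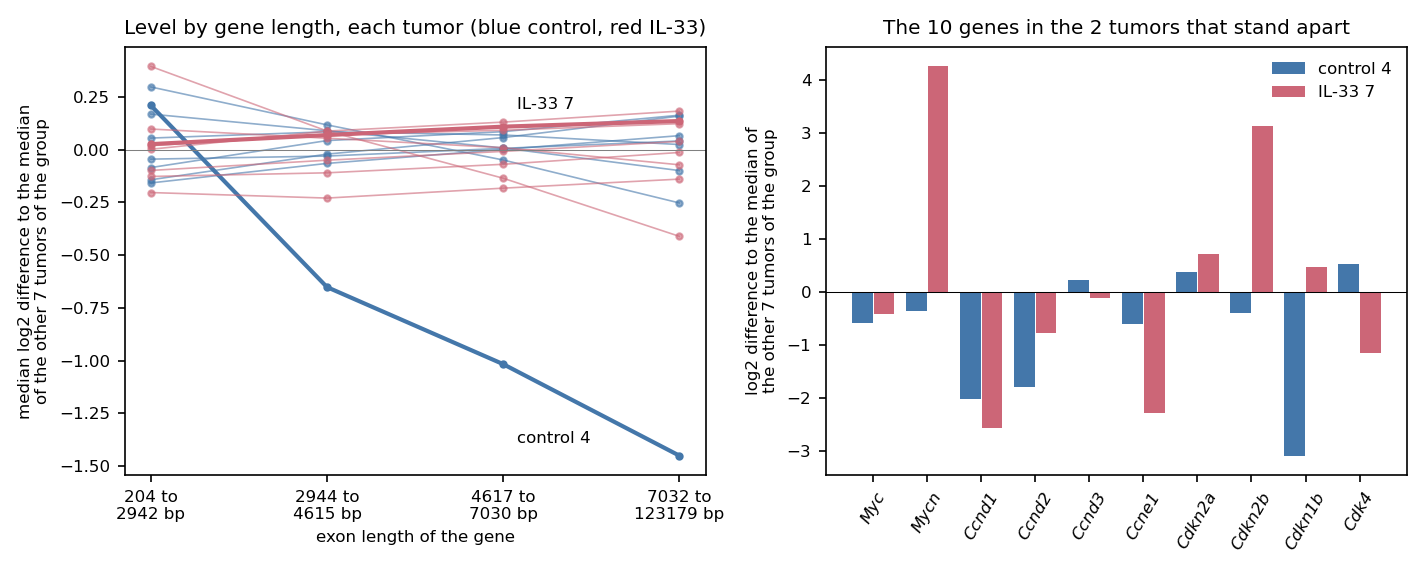
Left, median log2 difference of each tumor from the median of its group's other 7 tumors, for genes in 4 classes of exon length; control replicate 4 descends from 0.21 to -1.45. Right, the same log2 difference for the 10 genes in control replicate 4 (blue) and IL-33 replicate 7 (red), with Cdkn1b at -3.08 in the former and Mycn at 4.26 in the latter.

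The wider pathway was read from 9 lists of genes that work with these 10, and no gene of any list passed an adjusted p of 0.05 in edgeR, with all tumors, without IL-33 replicate 7 or without both tumors that stood apart. Of 11 Myc network genes 2 were higher at an unadjusted p under 0.05 and 0 lower, where 9.99% of all genes tested were higher and 1.17% lower. They were Mycl, and the Myc antagonist Mxd1, which was at 29.3 ± 9.13 CPM in control and 41.8 ± 11.1 CPM in IL-33 tumors (SD, n = 8 each; log2 fold change 0.47, edgeR adjusted p = 0.421). Mxd1 kept its size without both tumors that stood apart, at 0.54 (edgeR, unadjusted p = 0.0138; 4.19% of all genes had an unadjusted p under 0.05 in that fit). Of the 3 ARF and p53 genes 1 was higher at an unadjusted p, beside the same 9.99% of all genes: Mdm4, an inhibitor of p53, with a log2 fold change of 0.42 (edgeR adjusted p = 0.418) and 142 CPM in IL-33 replicate 7. Without both tumors it was 0.21. Of the 5 chromosome neighbours of Cdkn2a and Cdkn2b 1 was higher at an unadjusted p, Elavl2, with 0.513 CPM in IL-33 replicate 7 and at most 0.0604 CPM in 14 other tumors. The 8 other G1 cyclins and kinases, the 13 RB and E2F genes, the 9 genes of protein turnover and the 4 other CDK inhibitors had no gene at an unadjusted p under 0.05. Among these inhibitors Cdkn1a, the p53 target p21, was at 49.8 to 288 CPM and Cdkn2c, or p18, at 25.5 to 76.0 CPM. The 20 Myc target genes of ribosome making and metabolism had a median log2 fold change of -0.10 with 18 of 20 negative, -0.01 with 10 of 20 negative without IL-33 replicate 7, and -0.01 with 13 of 20 negative without both tumors that stood apart. The 15 E2F target genes of DNA replication had -0.10 with 13 of 15 negative, 0.05 with 3 of 15 negative without IL-33 replicate 7, and -0.02 with 9 of 15 negative without both. Over all genes tested, 7012 of 16817 were negative with all tumors, 8229 of 15803 without IL-33 replicate 7 and 7599 of 15744 without both.

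Across tumors, several of the 10 genes moved together. Relations were computed on log2(CPM + 0.5) between 28 pairs of the 8 genes with a mean of at least 1 CPM, and the values below are without control replicate 4 and IL-33 replicate 7 (n = 14), with permutation p adjusted over the 28 pairs. Ccnd1 and Ccne1 varied together, with Pearson r = 0.68 (permutation p = 0.00629, adjusted 0.0278) and Spearman rho = 0.82 (permutation p = 0.00063, adjusted 0.00882). With all 16 tumors r was 0.82 and rho 0.85, and leaving out the 2 tumors farthest in Ccnd1, which are the same pair, gave the r of 0.68. Myc and Ccne1 had r = 0.65 (permutation p = 0.0106, adjusted 0.0371) and rho = 0.74 (permutation p = 0.00374, adjusted 0.0243). Over 16 tumors that pair had r = 0.62 and rho = 0.78, and r = 0.70 without the 2 tumors farthest in Myc. Ccne1 and Cdk4 had r = 0.77 (permutation p = 0.00118, adjusted 0.0193) and rho = 0.84 (permutation p = 0.00047, adjusted 0.00882) over the same 14 tumors. Over 16 tumors r was 0.80 and rho 0.68, and r was 0.33 without IL-33 replicates 6 and 7, the 2 farthest in Ccne1, where control replicate 4 is kept. Cdkn2b, an inhibitor, also varied with the cyclins: with Ccnd1 it had r = 0.63 (permutation p = 0.0130, adjusted 0.0404) and rho = 0.72 (permutation p = 0.00516, adjusted 0.0243), and with Ccne1 r = 0.69 (permutation p = 0.00694, adjusted 0.0278) and rho = 0.71 (permutation p = 0.00521, adjusted 0.0243). Neither held over 16 tumors, where r was -0.48 and rho 0.37 with Ccnd1, and r was -0.40 and rho 0.40 with Ccne1. Without the 2 tumors farthest in the cyclin, r was 0.63 and 0.66. Cdkn2b met the limit of 1 CPM only with IL-33 replicate 7 kept. Its mean was 1.37 CPM over 16 tumors and 0.937 CPM over the 14, where it had 4 to 31 reads per tumor. CPM values of a tumor share its total, so a change in a few abundant genes moves them jointly.

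The p27 gene ran the other way. Cdkn1b was low where Ccnd3 was high, with r = -0.73 (permutation p = 0.00344, adjusted 0.0193) and rho = -0.72 (permutation p = 0.00471, adjusted 0.0243) over the 14 tumors. Within the 8 controls rho was -0.93 and r -0.62, and within the 8 IL-33 tumors rho was -0.76 and r -0.61. The sign was thus the same inside both groups, with the 2 tumors that stood apart kept and no p computed. Neither gene differed between the groups at an adjusted p under 0.05 (edgeR). Over 16 tumors r was -0.63 and rho -0.80, and r was -0.60 without the 2 tumors farthest in Ccnd3. Cdkn1b and Cdk4 had r = -0.74 (permutation p = 0.00238, adjusted 0.0193) and rho = -0.59 (permutation p = 0.0300, adjusted 0.0764). Over 16 tumors r was -0.61 and rho -0.72 (r = -0.66 without the 2 farthest in Cdkn1b). Among the 14 tumors Cdkn1b was lowest in IL-33 replicate 3, control replicate 8 and control replicate 7, at 34.3, 37.9 and 40.8 CPM. From the shortest to the longest class the median log2 difference there ran from 0.39 to -0.41, 0.17 to -0.099 and 0.30 to -0.25. Cdkn1b was highest in IL-33 replicate 6, which ran from -0.20 to -0.14. Principal transcripts are 4552 bp for Cdkn1b, 2113 bp for Ccnd3 and 2053 bp for Cdk4. The part of gene length in these relations was not tested. Myc and Cdk4, whose promoter carries the 4 E-boxes shown above, had r = 0.45 (permutation p = 0.105, adjusted 0.212) and rho = 0.55 (permutation p = 0.0438, adjusted 0.102), and r = 0.23 and rho = 0.37 over 16 tumors. In all, 6 of the 28 pairs passed an adjusted p of 0.05 by rho over the 14 tumors and 6 over 16, of which 4 were the same. Those over the 14 tumors include Cdkn2b with Ccnd1 and with Ccne1.

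Against the summed level of 16 marker lists and of the Myc and E2F target lists, 26 of 144 pairs passed an adjusted p of 0.05 by rho over the 14 tumors, 16 over all 16, and 11 in both. Ccnd1 followed the 6 proliferation markers with r = 0.74 (permutation p = 0.00182, adjusted 0.0291) and rho = 0.85 (permutation p = 0.00026, adjusted 0.00936) over 14 tumors, and with r = 0.96 and rho = 0.90 over 16, where the pair farthest from the median in Ccnd1 is again the one that stood apart. Ccne1 followed the 6 T cell markers with r = 0.88 (permutation p = 3e-05, adjusted 0.00216) and rho = 0.93 (permutation p = 1e-05, the smallest that 100000 permutations can give, adjusted 0.00144). Over 16 tumors r was 0.55 and rho 0.84, and r was 0.85 without IL-33 replicates 6 and 7, the 2 farthest in Ccne1. The T cell markers were low in total, at 3.5 to 66.2 CPM. Ccne1 ran against the epithelial markers, of which Krt8 and Krt19 carry nearly all of the level, with r = -0.88 (permutation p = 3e-05, adjusted 0.00216) and rho = -0.92 (permutation p = 2e-05, adjusted 0.00144). Over 16 tumors r was -0.65 and rho -0.92, and r was -0.86 without the same 2. Cdkn1b ran against the 6 macrophage markers with r = -0.84 (permutation p = 0.00027, adjusted 0.00778) and rho = -0.76 (permutation p = 0.00222, adjusted 0.0247) over the 14 tumors, but with r = -0.12 and rho = -0.46 over all 16 and r = -0.43 without the 2 farthest in Cdkn1b. Myc and its 20 target genes had rho = 0.72 (permutation p = 0.00521, adjusted 0.0326) and r = 0.64 (permutation p = 0.0119, adjusted 0.0610), with rho = 0.79 and r = 0.62 over 16 tumors and r = 0.80 without the 2 farthest in Myc. The part of cell type make-up in the levels of the 10 genes was not tested, nor was that of gene length in these relations.

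**Figure D5:**
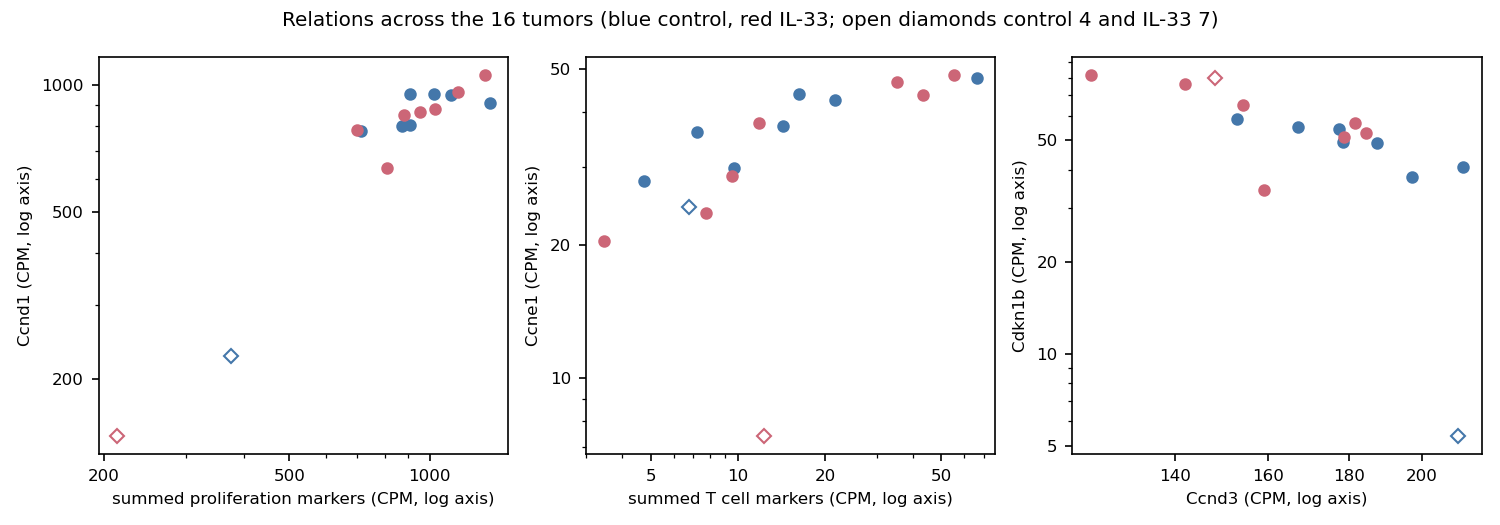
Level of Ccnd1 against the summed proliferation markers, Ccne1 against the summed T cell markers, and Cdkn1b against Ccnd3, all in CPM on log axes, 1 point per tumor (blue control, red IL-33). Open diamonds are control replicate 4 and IL-33 replicate 7; Spearman rho over the 14 other tumors is 0.85, 0.93 and -0.72.

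For the 8 genes with a mean of at least 1 CPM, which leaves out Mycn and Cdkn2a, the genes most like each in order over the 16 tumors were searched among 13109 genes by Spearman rho, as a description without a test. For Ccne1 these were Fen1 (0.979), Ifrd2 (0.971) and Tyms (0.968), of which Fen1 processes Okazaki fragments and Tyms makes thymidylate for DNA synthesis. For Cdk4 the first was Tsfm (0.974), a mitochondrial translation factor whose gene lies 32694 bp away on the same chromosome (chr10:127011572-127030840, minus strand), followed by Metrn (0.953) and Gins4 (0.947), a subunit of the replicative helicase. Cdkn1b was closest to Suco (0.950), App (0.947) and Ccni (0.926), and Ccnd2 to Ptpn11 (0.944), Noc3l (0.941) and Ints2 (0.938). Myc was closest to Pdcd7 (0.894), Ube2k (0.885) and Zfp639 (0.871), Ccnd1 to Pwp1 (0.885), Ddx10 (0.853) and Cyb5r4 (0.850), and Ccnd3 to Alg3 (0.882), Shq1 (0.871) and Scamp4 (0.865). Cdkn2b had the weakest best matches, Shisa3 (0.830), Ing5 (0.826) and 3110001I22Rik (0.824). Apart from Tsfm, none of these genes was on the same chromosome as its partner.

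Several of the 10 genes share exon sequence with a gene on the opposite strand. Cdk4 shares 641 bp with Tspan31, Ccnd1 shares 1100 bp with LTO1 and Ccnd3 shares 361 bp with Bysl, and Ccnd2 shares 372 and 368 bp with the antisense genes Gm43126 and 9330179D12Rik. Over the 16 tumors Tspan31 had 39996 reads against 167129 on Cdk4, LTO1 11090 against 237036 on Ccnd1, and Bysl 17235 against 50860 on Ccnd3. The use of strand in counting is not given in the sources used here, so reads in these stretches cannot be told apart.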

How the data were processed

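RNA was purified by poly(A) selection from 8 control and 8 IL-33 tumors. The authors deposited raw counts of reads per gene for each tumor, without normalization. The submitters' processing notes name HISAT2, featureCounts and build mm10; versions, the annotation release and the use of strand are not given in the sources used here. Groups and replicate numbers came from the sample titles.

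Of 22298 Ensembl IDs, 22255 matched a symbol in GENCODE M21 (GRCm38), and 43 did not and held 0.00434% of the counts. Genes with 10 or more counts in all (16817) were fitted with edgeR 4.0.16 in R 4.3.3 (TMM, glmQLFit, glmQLFTest, Benjamini-Hochberg adjustment, calls at 0.05). DESeq2 1.42.0 was an alternative. DESeq2 replaces an extreme count by an estimate, which it did for Mycn and for 3269 genes in all. For single values an exact permutation test (two-sided) compared mean log2(CPM + 0.5) over 12870 assignments, whose smallest p is 0.0002. Across-tumor relations used 100000 permutations. Levels per kilobase divide CPM by the exon length. The models were tested on simulated counts. No 2 tumors were duplicates: the chi-square per degree of freedom was at least 8.79 for every pair.

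The 10 genes, the pathway and marker lists and the tests were chosen with earlier results of these data known. Named genes were the 10, up to 4 genes of each list by smallest edgeR p, and the 3 genes most like each of the 8 with a mean of at least 1 CPM. Outside this rule, genes overlapping the 10 were named by position, and Klhl9 and Cdk6 after their values were seen. The alternatives were other normalizations, filters and pseudocounts, the replicate number as a block, each tumor left out in turn and, added after the data were seen, the omission of both control replicate 4 and IL-33 replicate 7 and the principal transcript length. Where 1 tumor was left out, 7 remained in its group.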

Additional observations from a re-analysis of the deposited data

Results flagged for a closer look

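Values of the 10 genes and of the 3 D cyclin shares were compared within each group, 26 groups of 8 tumors in all, and a value was singled out when its gap to the nearest other tumor passed Dixon's 95% limit for 8 samples as a part of the group's range. Chance singles out about 1 in 20 such groups. All 11 values found came from the same pair of tumors. In control replicate 4, Ccnd1 at 226 CPM, Ccnd2 at 84.2 CPM and Cdkn1b at 5.38 CPM lay far below the other controls. In the same tumor the Ccnd1 share of the D cyclin level was far below at 59.3% and the Ccnd3 share far above at 29.6%. In IL-33 replicate 7, Ccnd1 at 146 CPM and Ccne1 at 7.41 CPM lay far below the other IL-33 tumors, and Mycn at 10.2 CPM and Cdkn2b at 8.09 CPM far above. The Ccnd1 share was 49.1% and the Ccnd3 share 26.7% there.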

How the results depend on the processing

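No gene passed an adjusted p of 0.05 under any alternative run, edgeR or DESeq2, and the 9 lists had 0 calls in each. Genes at an unadjusted p under 0.05 numbered 1876 with edgeR, 691 with DESeq2 and 651 without IL-33 replicate 7. The directions below turned, and the cause was not tested. Without control replicate 4 and IL-33 replicate 7 together, the log2 fold change turned to -0.50 for Mycn, 0.0005 for Ccnd1, -0.38 for Cdkn2b and 0.0498 for Cdk4, the permutation difference (log2) to -0.0861 for Mycn, -0.25 for Cdkn2b and 0.0117 for Cdk4, and the Ccnd2 share difference to -1.10 points. DESeq2, which replaced a count of Mycn, gave it -0.46, and TMM-scaled CPM gave Myc a permutation difference of -0.021. Leaving out 1 tumor at a time, the log2 fold change ranged from -0.0369 to 0.0841 for Myc, from -0.36 to 3.53 for Mycn, from -0.16 to 0.11 for Ccnd1 and from -0.37 to 0.73 for Cdkn2b. The permutation difference ranged from -0.0026 to 0.15 for Myc, from -0.0495 to 0.58 for Mycn, from -0.36 to 0.21 for Ccnd1, from -0.31 to 0.0077 for Ccnd2 and from -0.21 to 0.25 for Cdkn2b. The share difference in points ranged from -2.11 to 4.14 for Ccnd1, from -0.85 to 1.46 for Ccnd2 and from -3.29 to 1.66 for Ccnd3. In the leave-one-out fits the turned log2 fold change of Mycn, Ccnd1 and Cdkn2b came without IL-33 replicate 7. For Ccnd2 the permutation difference turned without that tumor, whereas the log2 fold change stayed negative, from -0.26 to -0.05. Low counts limit Mycn, Cdkn2a and Cdkn2b.

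The replicate numbers did not pair the tumors (correlations of same-numbered deviations from -0.32 to 0.35). With the replicate block in edgeR, 0 genes were called and 318 had an unadjusted p under 0.05, Myc was -0.0201 and Mycn 0.24, and the share differences were 0.26, 0.69 and -0.96 points.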
